A study of Mus musculus with 12 samples.

Results

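The transcripts described here are 36 genes that mark T cells and natural killer (NK) cells, followed through RNA-seq libraries of mouse spleen cells that had been selected for other lineages. They were chosen from a list of names, 24 for T cells and 12 for NK and cytotoxic cells. The rule held no measured value, but the list was made with earlier results of these data known. All 36 were present among the 16805 genes of the table for cells labelled neutrophils and the 16954 genes of the table for cells labelled monocytes, and all 36 passed the filter on low counts in both.

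The mice were wild type. Cells of the first kind were taken from the spleen by positive selection of cells stained with PE anti-Ly6G, from tumor-bearing mice (control, n = 3 libraries) and from mice 12 h after CTT, a cryo-thermal therapy of the tumor (n = 3). Cells of the second kind were selected with PE anti-CCR2 5 days after CTT, from mice given CTT alone (n = 3) or CTT and anti-Ly6G, an antibody against a neutrophil surface protein (n = 3). All 6 CCR2-selected libraries came from mice after CTT, and no CCR2-selected cells without CTT were analysed here. Libraries are named biological replicates in the labels, which do not say how many mice went into each, what tumor line was used or how old the mice were. The p-values therefore measure the spread between these libraries.

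A T cell is known by its antigen receptor, which signals through the CD3 chains (Cd3e, Cd3d, Cd3g) and the zeta chain (Cd247). The kinases Lck and Zap70 and the adaptor Lat relay the signal, while Cd4 and the paired chains Cd8a and Cd8b1 are coreceptors that bind MHC molecules. NK cells lack this receptor and carry activating and inhibitory lectin-like receptors of the Klr family and the natural cytotoxicity receptor Ncr1, and they kill, as cytotoxic T cells do, with perforin (Prf1) and granzymes (Gzma, Gzmb). Some of these genes are also used outside the T and NK lineages in mouse spleen. Cd4 and Cd8a are made by subsets of dendritic cells, and Cd2 is made by B cells.

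Libraries held 30942849 to 35956571 counted reads. The selected cells were mixtures by their transcripts. Summed markers of B cells stood at 3965 to 9998 CPM (the count of a gene relative to the scaled library total) in the Ly6G-selected libraries and at 3939 to 7226 CPM in the CCR2-selected ones. Neutrophil markers summed to 4206 to 13004 CPM in the former and 4959 to 18850 CPM in the latter, and Ly6g itself averaged 11.8 CPM in Ly6G-selected control cells against 13.6 CPM in CCR2-selected cells after CTT alone. The T cell members summed to 448 to 852 CPM in the Ly6G-selected libraries and 241 to 289 CPM in the CCR2-selected ones, and the NK and cytotoxic members to 169 to 337 and 114 to 138 CPM. In bulk libraries fewer cells of a type and less RNA per cell cannot be told apart. Control replicate 1 of the Ly6G-selected cells stood apart, with erythroid markers at 16385 CPM against 476 to 2786 CPM in the other 5 libraries, and with the lowest sums of T cell members (448 CPM) and of B cell markers (3965 CPM) among the 6.

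The promoters of 4 members on which the results below turn are given for orientation: Cd3g and Cd3d, neighbours on chromosome 9 whose transcripts rose together in CCR2-selected cells, Nkg7, the cytotoxic granule gene that rose there, and Klrk1, the NK receptor gene that fell. Each window runs from 250 bases before to 50 bases after a gene start on GRCm38.p6 (RefSeq), 5′ to 3′ on the gene's strand. Capitals mark matches on either strand to 4 motifs: TGTGGT (RUNX), AGGAAG (ETS), CACCTG (an E-box) and AGGTGTG (T-box). The reverse of the E-box motif, CAGGTG, shares letters with the T-box motif, so those matches can overlap.
Cd3g, chr9:44980382-44980681, minus strand: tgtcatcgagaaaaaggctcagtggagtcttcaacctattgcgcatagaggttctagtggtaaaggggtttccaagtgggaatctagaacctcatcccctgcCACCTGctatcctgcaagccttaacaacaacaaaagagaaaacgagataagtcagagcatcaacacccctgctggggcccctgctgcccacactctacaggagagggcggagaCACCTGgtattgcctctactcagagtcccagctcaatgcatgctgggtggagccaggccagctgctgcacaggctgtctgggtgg
Cd3d, chr9:44981536-44981835, plus strand: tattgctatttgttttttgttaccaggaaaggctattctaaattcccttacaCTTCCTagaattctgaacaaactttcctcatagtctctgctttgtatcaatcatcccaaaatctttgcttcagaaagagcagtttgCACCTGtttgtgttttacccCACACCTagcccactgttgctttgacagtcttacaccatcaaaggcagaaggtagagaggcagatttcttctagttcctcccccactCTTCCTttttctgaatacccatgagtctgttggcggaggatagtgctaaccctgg
Nkg7, chr7:43436888-43437187, plus strand: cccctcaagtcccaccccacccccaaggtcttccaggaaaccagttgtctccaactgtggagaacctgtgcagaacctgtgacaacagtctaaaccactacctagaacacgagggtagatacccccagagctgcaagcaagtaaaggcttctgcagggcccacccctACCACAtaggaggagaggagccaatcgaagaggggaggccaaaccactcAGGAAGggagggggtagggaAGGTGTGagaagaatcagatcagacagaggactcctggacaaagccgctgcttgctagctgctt
Klrk1, chr6:129623815-129624114, minus strand: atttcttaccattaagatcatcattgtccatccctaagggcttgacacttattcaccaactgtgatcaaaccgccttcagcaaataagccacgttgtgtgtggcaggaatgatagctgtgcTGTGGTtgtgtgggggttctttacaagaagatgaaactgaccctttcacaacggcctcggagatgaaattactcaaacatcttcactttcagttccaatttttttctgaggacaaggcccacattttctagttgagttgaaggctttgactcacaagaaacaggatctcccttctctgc
The windows of Cd3g and Cd3d share the E-box motif, and that of Klrk1 holds a RUNX match only. RefSeq windows were at hand for 26 of the 36 members, with 35 windows in all since some genes have several starts. The E-box motif was present in 15 of these 35 windows (42.9%) against 20.2% of all 32851 promoter windows, the RUNX motif in 12 (34.3% against 16.8%), the ETS motif in 18 (51.4% against 35.4%) and the T-box motif in 3 (8.57% against 5.84%). Windows of the same gene can overlap, as those of Ncr1 do, so a match can count more than once. By gene, the E-box motif was present in 13 of the 26, RUNX in 11, ETS in 16 and T-box in 3. These matches describe letters only and were not tested.

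Levels were compared between genes as FPKM, which divides counts by gene length and by the library total. In Ly6G-selected control cells the level was highest for Cd2, an adhesion receptor of lymphocytes, at 134 ± 57.9 FPKM (SD, n = 3), followed by Ccl5, the chemokine RANTES, at 96.2 ± 23.8 FPKM. These 2 did not separate beyond their spread. Lck (30.5 ± 9.10 FPKM), the surface glycoprotein gene Thy1 (24.3 ± 8.53 FPKM) and the tryptase granzyme gene Gzma (24.1 ± 6.53 FPKM) came next and overlapped each other. At the low end stood Eomes (1.66 ± 0.383 FPKM), Gata3 (1.24 ± 0.476 FPKM) and Bcl11b (1.03 ± 0.369 FPKM), which encode transcription factors. In CCR2-selected cells after CTT alone, Cd2 (59.1 ± 10.8 FPKM) and Ccl5 (34.4 ± 7 FPKM) again led, and the NK receptor gene Klrd1, which encodes CD94, moved to the third place (15.6 ± 1.05 FPKM), with Cd4 (14.5 ± 0.976 FPKM) and Lck (14.0 ± 2.48 FPKM) beside it. Lef1 (0.384 ± 0.194 FPKM) and Bcl11b (0.226 ± 0.0497 FPKM) closed that order.

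**Figure D1:**
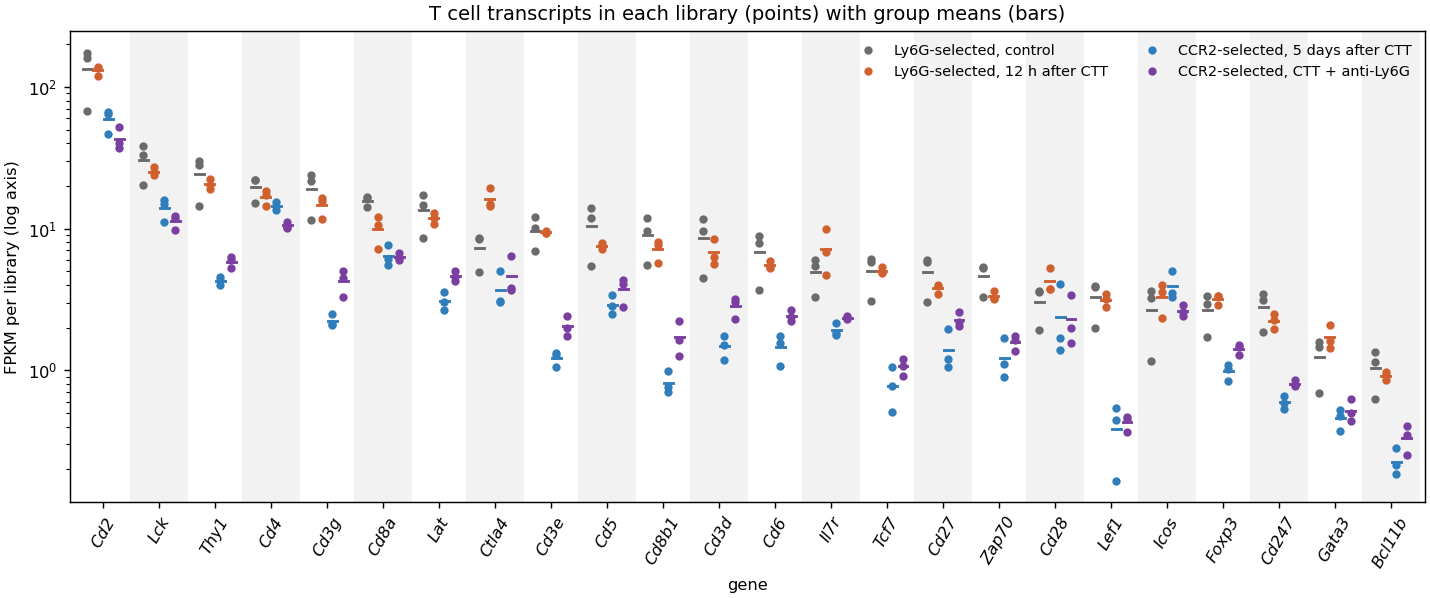
FPKM (log axis) of the 24 T cell transcripts in each of the 12 libraries, by group, with bars at group means of 3 libraries and genes ordered by their mean in Ly6G-selected cells. Most genes lie far lower in the CCR2-selected libraries, whereas Cd4, Cd8a, Icos and Cd28 overlap between the Ly6G-selected and CCR2-selected libraries after CTT alone. Cd8a in the control libraries (14.2 to 16.6 FPKM) lies above all CCR2-selected ones (5.50 to 7.70 FPKM).

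Most T cell transcripts were scarcer in the CCR2-selected cells than in the Ly6G-selected ones, but by very unequal amounts. Set side by side after CTT, 20 of the 24 T cell members had higher FPKM in all 3 Ly6G-selected libraries than in any of the 3 CCR2-selected ones, and 4 overlapped. Over all 12793 genes tested in both tables, 17.3% were separated in that direction and 39.6% in the other. The median ratio of the T cell members was 3.75 against 0.888 over all those genes. These 2 kinds of cells differ in antibody and in time after CTT, 12 h against 5 days, and come from separate tables, so that the levels are set beside each other with no test.

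The CD3 chains were among the genes with the widest gap. Cd3e stood at 9.37, 9.59 and 9.29 FPKM in the Ly6G-selected CTT libraries and at 1.06, 1.33 and 1.27 FPKM in the CCR2-selected CTT libraries, a ratio of 7.71. Cd3g had a ratio of 6.53 and Cd3d of 4.62. Cd8b1, the beta chain of the CD8 coreceptor, stood at 5.74, 7.65 and 8.07 against 0.987, 0.699 and 0.761 FPKM, a ratio of 8.77 and the highest of the 36. For the T cell transcription factors Lef1 and Tcf7, which act downstream of Wnt signals, the ratios were 8.16 and 6.47. The groups did not overlap for any of these 6 genes.

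The other 4 T cell members overlapped. Cd4 stood at 14.5, 17.3 and 18.4 FPKM in the Ly6G-selected and at 14.4, 13.6 and 15.5 FPKM in the CCR2-selected CTT libraries, a ratio of 1.16 with overlapping groups. Cd8a, the alpha chain of the coreceptor, had a ratio of 1.55, Cd28, the costimulatory receptor, of 1.78, and Icos, an inducible costimulator of the same family, of 0.838, all with overlap.

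NK and cytotoxic members were spread as widely. Of the 12, 9 were higher in all 3 Ly6G-selected CTT libraries, 2 were higher in all 3 CCR2-selected ones and 1, Klrd1, overlapped. Over all 12793 genes tested in both, 17.3% were higher in the Ly6G-selected libraries without overlap and 39.6% in the CCR2-selected ones. The median ratio of the 12 members was 3.11 against 0.888 over all those genes. Gzmb, granzyme B, had the widest gap at a ratio of 8.51, from 8.92, 11.1 and 15.4 FPKM to 1.75, 1.18 and 1.24 FPKM. Il2rb, the beta chain of the receptors for interleukin-2 and interleukin-15, had a ratio of 4.29, Eomes, a T-box factor of NK and memory T cells, of 3.75, and Ncr1, which encodes NKp46, of 2.27. In contrast, Klrk1, which encodes the activating receptor NKG2D, stood at 6.40, 5.92 and 7.13 FPKM in the Ly6G-selected and 12.0, 8.55 and 10.1 FPKM in the CCR2-selected CTT libraries. Tbx21, the T-box factor T-bet, was likewise higher in CCR2-selected cells (7.11 ± 0.467 against 4.46 ± 0.539 FPKM). With the control and anti-Ly6G libraries included, Klrk1 and Tbx21 overlapped between the 2 kinds of cells.

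**Figure D2:**
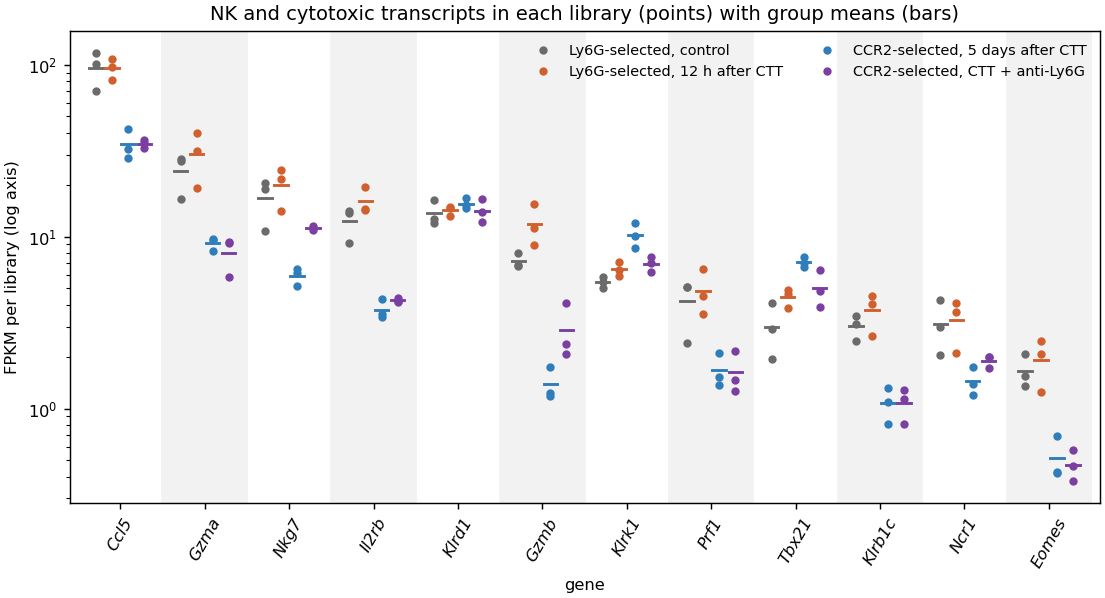
FPKM (log axis) of the 12 NK and cytotoxic transcripts in each of the 12 libraries, by group, with bars at group means of 3 libraries. Klrd1 lies at a like level in all groups, Klrk1 and Tbx21 are highest in the CCR2-selected cells after CTT alone, and Gzmb and Il2rb are far lower in CCR2-selected cells.

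Several pairs of members stood in different proportion in the 2 kinds of cells. The pairs below were chosen after their values had been seen and are described without a test. The Cd8a to Cd8b1 ratio of FPKM was 1.89 ± 0.603 in Ly6G-selected control cells and 1.38 ± 0.121 after CTT, against 8.13 ± 2.33 in CCR2-selected cells after CTT alone (SD, n = 3 each). For Cd4 to Cd3e the ratio was 2.07 ± 0.202, 1.78 ± 0.214 and 12.0 ± 1.67 in the same order, and for Klrk1 to Ncr1 it was 1.88 ± 0.536, 2.15 ± 0.827 and 7.10 ± 0.229. Gzma to Prf1, a pair of granule genes, lay close in all 3 groups, from 5.95 ± 0.820 and 6.17 ± 0.742 to 5.67 ± 1.28. Dendritic cell markers summed to 476 to 644 CPM in the Ly6G-selected libraries and 562 to 663 CPM in the CCR2-selected ones, and the monocyte and macrophage markers to 3002 to 4161 and 7600 to 13828 CPM. Their part in these ratios was not tested.

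**Figure D3:**
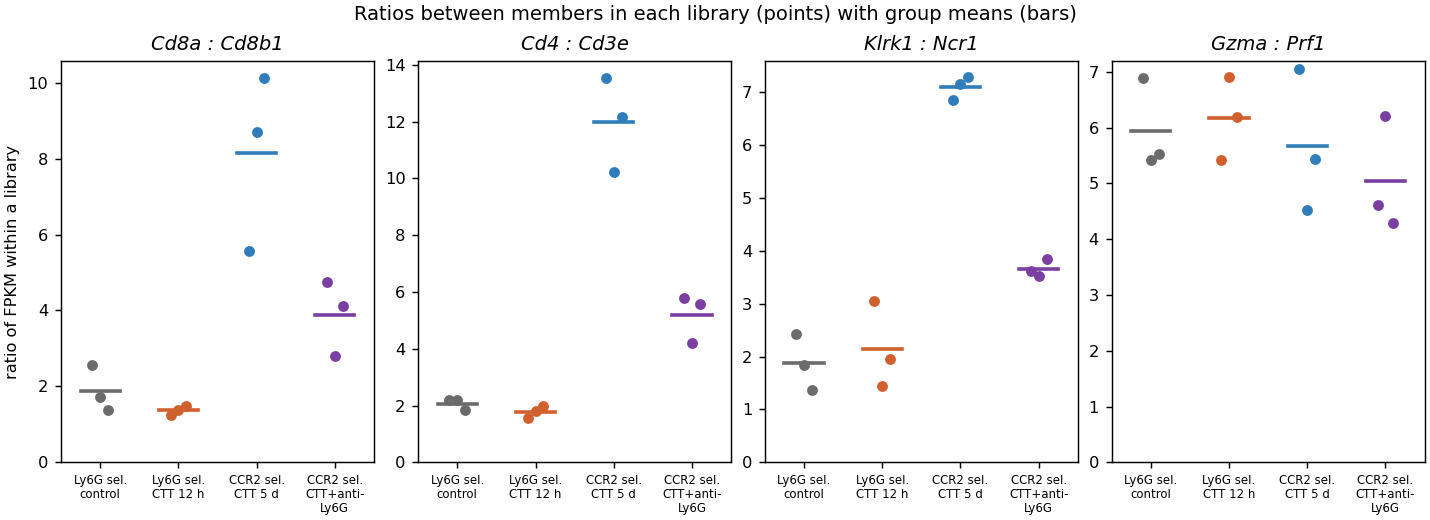
Ratio of FPKM between 2 members within each library (points, linear axis from 0) for 4 pairs, with bars at group means of 3 libraries. The first 3 ratios are highest in CCR2-selected cells after CTT alone and lower with anti-Ly6G, while Gzma to Prf1 overlaps across all 4 groups.

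In the Ly6G-selected cells, the comparison of CTT with control asks how the splenic cells differed 12 h after therapy. None of the 24 T cell members rose or fell (0 and 0 of 24, edgeR quasi-likelihood test with Benjamini-Hochberg adjustment over all 13058 genes), nor did any of the 12 NK and cytotoxic members (0 and 0 of 12). Across all genes 0.567% rose and 0% fell. At an unadjusted p below 0.05 there were 2 T cell members and 1 cytotoxic member, beside 1830 of the 13058 genes, a smaller share of the members than of all genes. Of the other tools, limma-voom called 0 of the 36 and DESeq2 called 1, Ctla4.

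Ctla4, the inhibitory receptor of activated and regulatory T cells, had the smallest adjusted p of the 36. Its control values were 10.4, 17.5 and 17.5 CPM, and its values after CTT were 30.6, 32.0 and 43.6 CPM. Every CTT library was above every control library, and the difference was 1.22 on the log2 scale (SE 0.25, edgeR adjusted p = 0.121). Leaving out control replicate 1, the difference was 1.02 and passed the test (edgeR adjusted p = 0.0278). Ctla4 passed in 2 of the 16 alternatives, this one and DESeq2. Its highest edgeR adjusted p over the 16 was 0.427, with another library left out.

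Foxp3, the master regulator of regulatory T cells, did not pass the test. It read 6.76, 11.2 and 12.8 CPM in control and 13, 13.4 and 11.9 CPM after CTT, with overlap (0.31, SE 0.25, edgeR adjusted p = 0.548). The ratio of Ctla4 to Foxp3 by FPKM was 2.52 to 2.90 in control libraries and 4.35 to 6.76 after CTT, without overlap. Like the pairs above, this ratio is described without a test. It carries the same Ctla4 difference, which did not pass in the main fit.

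Cd28 and Icos, which lie beside Ctla4 on chromosome 1, differed by 0.56 (SE 0.28, edgeR adjusted p = 0.395) and 0.38 (SE 0.43, edgeR adjusted p = 0.674). For Cd28 each CTT value exceeded each control value, and Icos overlapped. The interleukin-7 receptor gene Il7r read 13.7, 24.2 and 22.3 CPM in control and 41.1, 28.8 and 20.5 CPM after CTT, again with overlap.

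The CD3 chains and coreceptors gave no call. Cd3e read 10.1, 14.2 and 17.3 CPM in control and 13.7, 14.3 and 14.3 CPM after CTT, so that the CTT values fell within the control range (0.02, SE 0.21, edgeR adjusted p = 0.965). Cd4 read 52.4, 73.7 and 75.1 CPM in control and 50.2, 61.1 and 67.0 CPM after CTT, with overlap. Cd8a was the one T cell member whose CTT values all lay below the control values, at 22.4, 33.6 and 39.7 CPM against 44.3, 50.3 and 50.04 CPM (−0.60, SE 0.22, edgeR adjusted p = 0.34). Cd8b1, its partner chain, overlapped (−0.27, SE 0.30, edgeR adjusted p = 0.67). Of 10 dendritic cell markers 5 were separated downward and 1 upward, beside 11% and 13.6% of all genes, with a median of −0.33. Their sums overlapped (546 to 554 against 476 to 644 CPM). Their part in the Cd8a values was not tested.

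As a class the T cell members had a median log2 fold change of −0.15, with 9 positive and 15 negative values, beside a median of −0.02 and 47.9% positive over all genes. Without control replicate 1, the library with the lowest T cell sum, the median was −0.36 with 6 positive values, and Cd5, a scavenger-type receptor that dampens T cell receptor signals, fell (−0.70, edgeR adjusted p = 0.043). Without control replicate 3 the median was 0.05 with 14 positive values. Control replicates 2 and 3 held 796 and 852 CPM of T cell members in sum, above the 650, 687 and 714 CPM of the CTT libraries, while control replicate 1 with 448 CPM lay below them.

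All 12 NK and cytotoxic members had a positive log2 fold change after CTT, from 0.05 (Ccl5) to 0.78 (Gzmb), with a median of 0.32. None passed the test. Gzmb read 10.2, 9.94 and 11.8 CPM in control and 13.4, 17.1 and 24.5 CPM after CTT, with no overlap (0.78, SE 0.24, edgeR adjusted p = 0.279). For Il2rb (40.9, 59.6 and 62.3 against 64.4, 66.1 and 92.7 CPM) and Klrk1 (17.2, 18.2 and 19.6 against 21.9, 20.6 and 25.8 CPM) the groups were also apart. Of the 36 members 5 were separated upward and 1 downward, beside 13.6% and 11% of all genes. Gzma read 14.6, 23.4 and 24.4 CPM in control and 16.8, 28.0 and 37.3 CPM after CTT, with overlap. Ncr1 (3.02, 4.22 and 6.15 against 3.07, 6.15 and 5.65 CPM) and Ccl5 (37.3, 60.4 and 52.5 against 43.3, 52.2 and 60.3 CPM) overlapped too. CTT replicate 3 held the highest sum of NK and cytotoxic members (337 CPM) and also of neutrophil markers (13004 CPM). Without control replicate 1 the class had 10 positive values and a median of 0.18, without CTT replicate 3 again 10 and a median of 0.13, and with library totals in place of scaled ones 11, as Ccl5 turned negative.

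**Figure D4:**
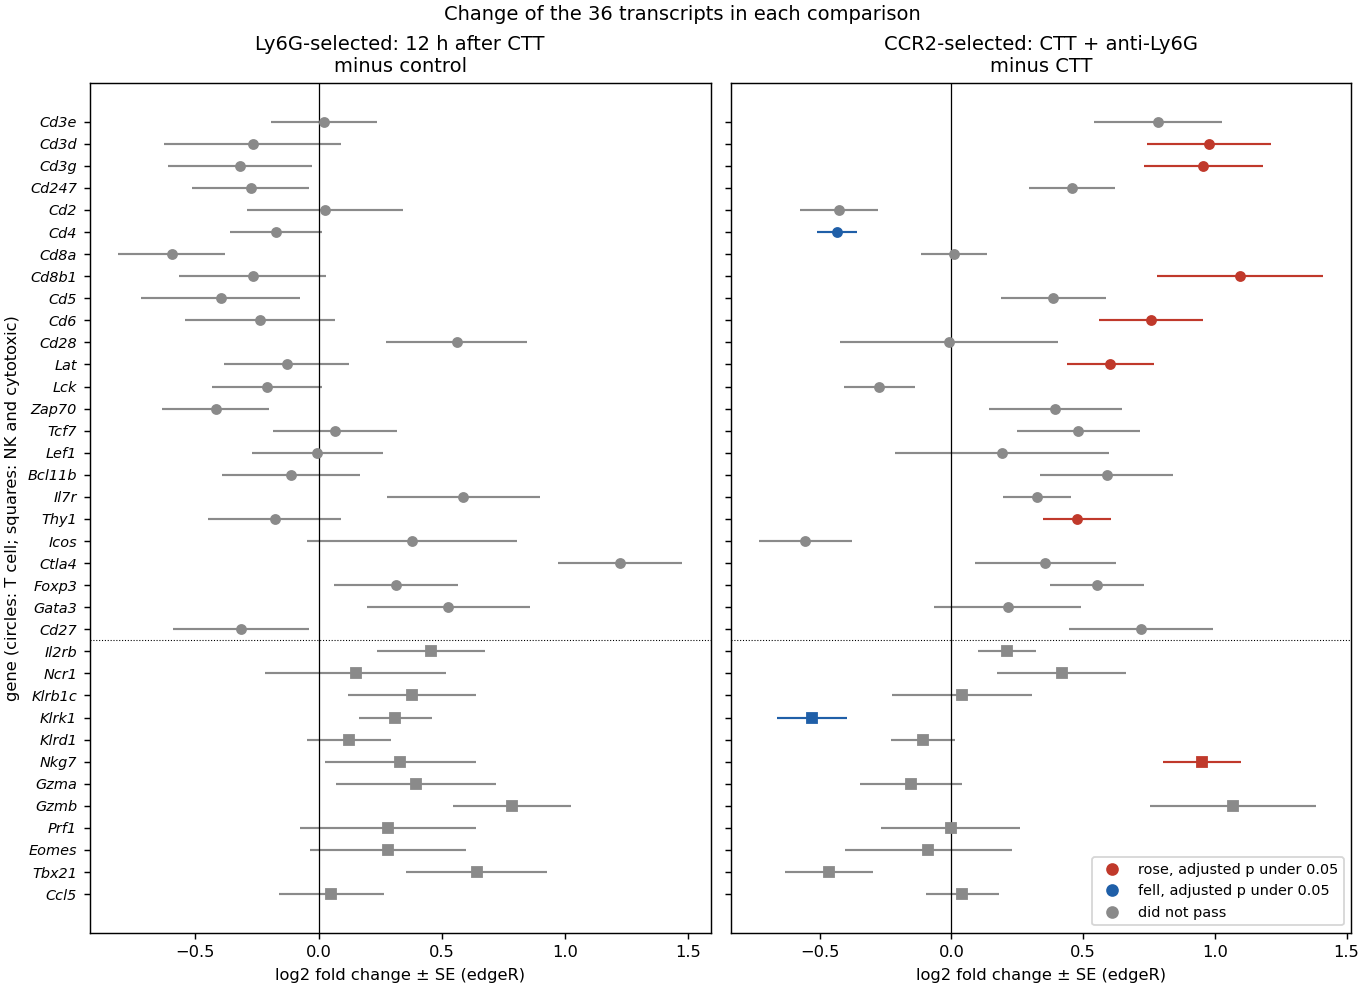
Log2 fold change of the 36 transcripts with its standard error in the Ly6G-selected cells (left, 12 h after CTT minus control) and the CCR2-selected cells (right, CTT with anti-Ly6G minus CTT alone), coloured by the edgeR call. No gene passed on the left. On the right Cd3d, Cd3g, Cd8b1, Cd6, Lat, Thy1 and Nkg7 rose and Cd4 and Klrk1 fell. Replicate libraries spread more on the left (edgeR common coefficient of variation 0.275) than on the right (0.114), so numbers of calls are not comparable between panels.

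Further genes of both lineages gave the same count of calls in Ly6G-selected cells. Of 37 further T cell genes 0 rose and 0 fell in edgeR, and of 37 further NK and cytotoxic genes 0 rose and 0 fell, with medians of 0.04 and 0.36. Without overlap between groups, 5 of these T cell genes were higher after CTT and 2 lower. For the NK and cytotoxic genes these counts were 12 and 1, beside 13.6% and 11% of all genes. The NK and cytotoxic list summed to 423 to 561 CPM in control and 710 to 1140 CPM after CTT. The closest to the threshold were Klrb1b, an inhibitory NK receptor (4.48 ± 0.848 to 10.54 ± 1.28 CPM, log2 difference 1.23, edgeR adjusted p = 0.0805), and Il18rap, a chain of the interleukin-18 receptor (27.7 ± 3.55 to 52.9 ± 8.49 CPM, 0.93, edgeR adjusted p = 0.085). The T cell receptor constant genes of that list were not matched by name and were not used here.

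In CCR2-selected cells, the comparison of CTT with anti-Ly6G against CTT alone asks how the selected cells differed when the antibody was given on top of the therapy. The CD3 chain genes Cd3d and Cd3g, Cd8b1, Cd6, Lat and Thy1 rose with the antibody, while Cd4 fell. Of the 24 T cell members 6 rose (25%) and 1 fell (4.17%), and of the 12 NK and cytotoxic members 1 rose and 1 fell (8.33% each), beside 10.2% and 5.12% of all 13294 genes (edgeR quasi-likelihood test, Benjamini-Hochberg adjusted over all genes). The T cell members had a median log2 fold change of 0.43 with 19 positive values, against a median of 0.00 with 49.2% positive over all genes. Their summed CPM nevertheless overlapped between groups (241, 281 and 289 CPM against 252, 257 and 280 CPM). Cd2 and Cd4, the most abundant members by CPM, had negative differences.

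Cd3d (Entrez gene 12500, chromosome 9 from 44981769 to 44987052) rose with the antibody. It read 1.78, 2.22 and 2.60 CPM after CTT alone and 3.52, 4.67 and 4.82 CPM with anti-Ly6G. The 3 antibody libraries all lay above the others, and they differed by 0.98 on the log2 scale (SE 0.24, edgeR adjusted p = 0.0256). Cd3g (12502, chromosome 9 from 44969572 to 44980431) read 2.19, 2.10 and 2.51 against 3.43, 4.64 and 5.12 CPM, without overlap (0.96, SE 0.23, edgeR adjusted p = 0.0244). Cd3e, the third CD3 chain and their neighbour, was also separated, at 1.56, 1.91 and 1.84 against 2.61, 3.6 and 2.93 CPM, but did not pass (0.78, SE 0.24, edgeR adjusted p = 0.0612).

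Cd8b1 (12526, chromosome 6 from 71322788 to 71337492) rose from 1.47, 1.02 and 1.11 CPM to 1.91, 3.34 and 2.42 CPM, with no overlap (1.10, SE 0.31, edgeR adjusted p = 0.048). These values rest on 33 to 119 reads per library, and the call was kept in 5 of 16 alternatives. Cd8a, which lies beside it, did not pass, at 17.3, 18.7 and 23.7 against 19.2, 19.7 and 21.2 CPM (0.01, SE 0.13, edgeR adjusted p = 0.972, a value whose sign varied with the setting). The ratio of Cd8a to Cd8b1 by FPKM lay between 5.58 and 10.1 without the antibody and between 2.79 and 4.76 with it.

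Among the surface and adaptor genes, Cd6, a receptor that binds CD166, rose by 0.76 on the log2 scale (SE 0.20, edgeR adjusted p = 0.0339), from 3.28, 5.24 and 4.64 to 6.89, 7.31 and 8.08 CPM. Lat rose from 4.18, 4.65 and 5.54 to 6.80, 7.19 and 7.87 CPM (0.60, SE 0.16, edgeR adjusted p = 0.0403). Thy1 rose from 6.96, 7.37 and 7.76 to 9.26, 11 and 10.4 CPM (0.48, SE 0.13, edgeR adjusted p = 0.0399). In all 3 the antibody libraries lay above the others. The zeta chain gene Cd247 was separated in the same way without passing (0.46, SE 0.16, edgeR adjusted p = 0.092), as were Foxp3 (0.55, edgeR adjusted p = 0.0718), Cd27, a costimulatory receptor of the TNF receptor family (0.72, edgeR adjusted p = 0.11), and Il7r (0.33, edgeR adjusted p = 0.122).

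Of the remaining T cell members none passed. Cd5 (0.39), Zap70 (0.39), Tcf7 (0.48), Lef1 (0.19), Gata3, a factor of T helper 2 cells (0.21), and Bcl11b (0.59) all had positive log2 differences with overlapping groups, and edgeR adjusted p-values from 0.151 for Bcl11b to 0.788 for Lef1.

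The calls depended on single libraries. Leaving out 1 library at a time, the number of T cell members that rose was 6 without CTT replicate 1, 1 without CTT replicate 2 or 3, 2 without antibody replicate 1 and 0 without antibody replicate 2 or 3. The 6 without CTT replicate 1 were not the same genes, since Lat and Thy1 no longer passed and Cd27 and Foxp3 did. Lat and Thy1 each passed in 7 of the 16 alternatives and in 0 of the 6 fits that left out a library. Over these fits the median log2 fold change of the class lay between 0.35 and 0.50, with 17 to 20 positive values. The counts over all genes moved as well, with 1354 that rose in the main fit and 1687 without CTT replicate 1. Without CTT replicates 2 and 3 they were 875 and 706, and without antibody replicates 1, 2 and 3 they were 761, 870 and 929.

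Cd4 (12504, chromosome 6 from 124864693 to 124888247) went the other way. It read 50.04, 46.3 and 53 CPM after CTT alone and 35.8, 35.9 and 38.8 CPM with anti-Ly6G. The groups did not overlap, and the difference was −0.43 (SE 0.08, edgeR adjusted p = 0.00633). This call held in all 16 alternatives. The ratio of Cd4 to Cd3e by FPKM lay between 10.2 and 13.5 after CTT alone and between 4.22 and 5.79 with the antibody, without overlap. Dendritic cell markers showed 0 of 10 genes past the test with a median of −0.02, and their sums overlapped (590 to 663 against 562 to 644 CPM). Of 14 monocyte and macrophage markers 4 rose and 7 fell, with a median of −0.55, beside 10.2% and 5.12% of all genes. Their part in the Cd4 result was not tested.

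Cd2 and Lck, which were abundant in CCR2-selected cells, had negative values and did not pass. Cd2 read 53.6, 72.6 and 74.4 CPM after CTT alone and 43.5, 46.6 and 59.4 CPM with the antibody, with overlap (−0.43, SE 0.15, edgeR adjusted p = 0.0861). Lck differed by −0.27 (SE 0.14, edgeR adjusted p = 0.21). Of 15 B cell markers 2 fell in the same comparison, beside 5.12% of all genes. All 15 had a negative difference, with a median of −0.47. They summed to 4961, 7226 and 6956 CPM after CTT alone and 3939, 4741 and 5253 CPM with anti-Ly6G. In the Ly6G-selected cells, Cd2 was lowest in control replicate 1 (77.4 against 144 to 195 CPM), as was Lck (46.8 against 54.3 to 85.6 CPM). That library held the lowest sums both of B cell markers (3965 CPM) and of T cell members (448 CPM). The part of B cells in the Cd2 values was not tested.

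Icos was separated downward, at 20.7, 13.2 and 14.2 against 10.7, 12.0 and 9.97 CPM (−0.55, SE 0.18, edgeR adjusted p = 0.0663). Its neighbours on chromosome 1 behaved otherwise. Cd28 read 6.34, 18.3 and 7.56 CPM after CTT alone and 15.8, 7.19 and 9.01 CPM with the antibody, so that 1 library of each group stood high. Ctla4 was highest in the same libraries, CTT replicate 2 (10.4 CPM) and antibody replicate 1 (13.9 CPM), against 6.33 to 8.18 CPM in the other 4. Plasma cell markers also peaked there, at 5516 and 4656 CPM in sum against 2351 to 2749 CPM in the others. This was seen after the values were known and was not tested, and Icos did not share it.

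**Figure D5:**
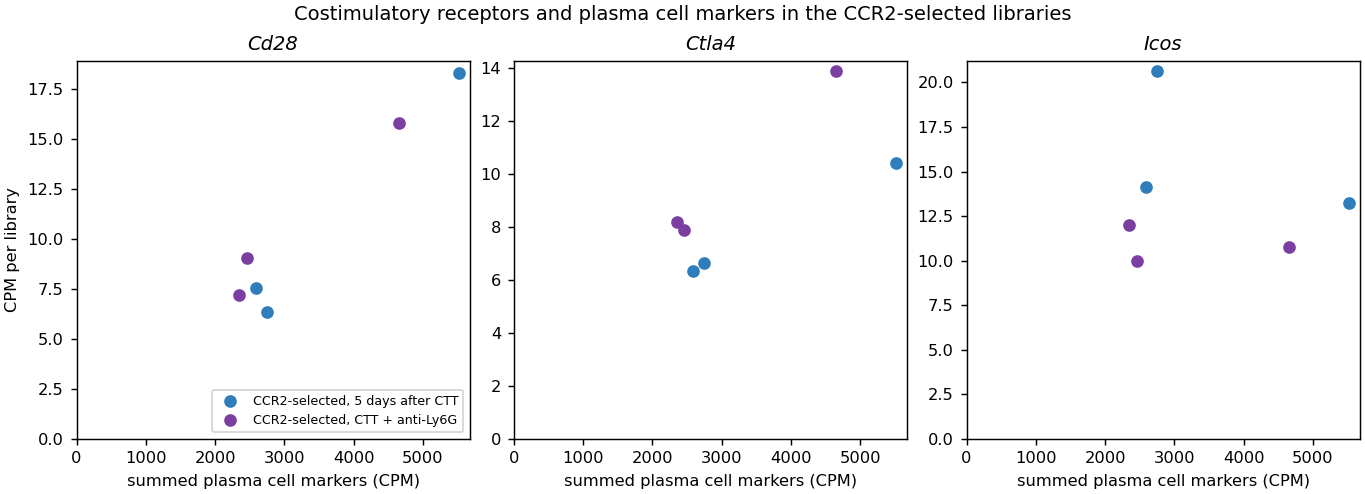
CPM of Cd28, Ctla4 and Icos against the summed CPM of 8 plasma cell markers in the 6 CCR2-selected libraries (linear axes from 0). The 2 libraries at 5516 and 4656 CPM of plasma cell markers hold the highest Cd28 and Ctla4 values, and the Icos values of those 2 lie within the range of the other 4.

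Among the NK and cytotoxic members, Nkg7 (72310, chromosome 7 from 43437138 to 43438246), which encodes a membrane protein of cytotoxic granules, rose. It read 5.31, 4.10 and 4.90 CPM after CTT alone and 9.56, 9.19 and 8.92 CPM with anti-Ly6G. The antibody libraries were all higher and close to each other, and differed by 0.95 on the log2 scale (SE 0.15, edgeR adjusted p = 0.00399), and the call held in all 16 alternatives. Gzmb read 2.65, 1.76 and 1.84 against 3.64, 6.29 and 3.14 CPM, without overlap, and did not pass (1.07, SE 0.31, edgeR adjusted p = 0.0521). Gzma (−0.15), Prf1 (0.00), Eomes (−0.09), Klrb1c, the NK1.1 antigen gene (0.04), and Ccl5 (0.04) overlapped between groups, and for each of these 5 the sign of the difference varied between settings. Ccl5 read 15.3, 16.8 and 22.1 against 17.7, 18.8 and 19.4 CPM, and Gzma 8.55, 8.26 and 7.15 against 5.22, 8.15 and 8.17 CPM. Ncr1 read 2.59, 1.73 and 2.01 against 2.58, 2.95 and 2.93 CPM. Il2rb (0.21, SE 0.11, edgeR adjusted p = 0.234) and Ncr1 (0.42, SE 0.24, edgeR adjusted p = 0.284) overlapped as well.

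Klrk1 (27007, chromosome 6 from 129610323 to 129623903) fell. It read 41.4, 28.9 and 34.3 CPM after CTT alone and 21.9, 24.3 and 26.3 CPM with the antibody, without overlap (−0.53, SE 0.13, edgeR adjusted p = 0.0303). Its call was lost without CTT replicate 3 and without each of the 3 antibody libraries (highest edgeR adjusted p over the 16 alternatives 0.113). Tbx21 was separated in the same direction without passing, at 17.1, 19.1 and 17.7 against 10.1, 16.5 and 12.4 CPM (−0.46, SE 0.17, edgeR adjusted p = 0.0945). Klrd1, which neighbours Klrk1 on chromosome 6, overlapped (−0.11, SE 0.12, edgeR adjusted p = 0.596). The Klrk1 to Ncr1 ratio lay between 6.85 and 7.30 without the antibody and between 3.53 and 3.84 with it.

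Over all 36 members, 13 were separated upward and 4 downward in the antibody libraries, beside 20.6% and 15.4% of all genes. Of 16 neutrophil markers 14 rose, beside 10.2% of all genes, with a median log2 fold change of 1.61. These markers summed to 4959 to 7003 CPM after CTT alone against 13844 to 18850 CPM with anti-Ly6G. Ccr2, the target of the selection, rose from a mean of 216 to 513 CPM. Their part in the member results was not tested.

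Of 37 further T cell genes 6 rose and 2 fell, with a median of 0.06, beside 10.2% and 5.12% of all genes. Ubash3a, a phosphatase that restrains T cell receptor signals, rose from 1.75 ± 0.240 to 4.15 ± 0.578 CPM (1.24, SE 0.23, edgeR adjusted p = 0.00835), and the tetraspan-like genes Ms4a6b (0.93, SE 0.07, edgeR adjusted p = 0.000172) and Ms4a4b (0.65, SE 0.12, edgeR adjusted p = 0.00923) rose too. Cd69, an early activation antigen, fell (−0.77, SE 0.15, edgeR adjusted p = 0.00922). Of 37 further NK and cytotoxic genes 4 rose and 1 fell, with a median of −0.15, shares near or below those of all genes. Hopx, an atypical homeodomain protein gene, rose from 11.7 ± 1.04 to 26.1 ± 2.16 CPM (1.16, SE 0.11), Il18rap by 0.61 (SE 0.10), Cd244a, which encodes the receptor 2B4, by 0.37 (SE 0.06) and Cst7, an inhibitor of cysteine proteases, by 1.52 (SE 0.35).

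For 10 of the 36 members another annotated gene lies on the same bases of an exon, among them Cd3e, Cd247, Lat, Foxp3, Gata3 and Klrb1c. How strand was treated in counting was not known, so reads of the overlapping genes cannot be told apart. Cd3d, Cd3g, Cd4, Cd8a, Cd8b1, Nkg7 and Klrk1 had no such overlap.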

How the data were processed

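RNA of selected spleen cells was sequenced in 12 libraries, grouped by their titles into 4 groups of 3. Per the submitters' processing notes, HISAT2, HTSeq and mm10 were used, with versions, annotation and strand not stated there. The authors deposited 1 table of counts and 1 table of FPKM for each kind of cell. Value columns matched to no sample numbered 0.

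Counts were tested in R 4.3.3 with edgeR 4.0.16, each kind of cell alone, with filterByExpr (13058 and 13294 genes kept), TMM scaling, the two-sided quasi-likelihood test and Benjamini-Hochberg adjustment over all genes kept, at a threshold of 0.05. The SE is the log2 fold change over the root of F. CPM use TMM-scaled totals. FPKM served for levels between genes. The fits were tested on simulated data. Replicates differed by more than counting error (chi-square per degree of freedom from 12.63). Gene positions and promoters are from RefSeq GRCm38.p6, and exon overlaps from a GRCm38 annotation.

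The members and lists were chosen with earlier results of these data known. All 36 members are named, and of each further list up to 4 genes with the smallest p. Alternatives were other scalings and filters, DESeq2 1.42.0, limma 3.58.1 (voom, and limma-trend on log2 FPKM plus 1 or 0.1), the replicate number as a block, and leaving out each library. Libraries of 30942849 to 35956571 reads leave counting error mainly for members of a few CPM.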

Additional observations from a re-analysis of the deposited data

How the results depend on the processing

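In Ly6G-selected cells, T cell members that rose numbered 0, 1 with DESeq2 (Ctla4) and 0 to 1 with 1 library left out, and those that fell 0 to 1 with 1 library left out, both calls coming without control replicate 1. No NK or cytotoxic member was called in any alternative run. In CCR2-selected cells, the 6 T cell members that rose became 3 with library totals, 8 with DESeq2, 2 with limma-trend on log2(FPKM + 1), 2 with 0.1 added and 7 with 1 added over genes with a mean of at least 1 FPKM (19 of the 24 members tested), and 0 to 6 with 1 library left out. The 1 T cell member that fell became 2 with library totals, 3 with DESeq2 and 1 to 3 with 1 library left out. The 1 NK or cytotoxic member that rose became 2 with no filter, 2 with DESeq2 and 1 to 2 with 1 library left out, and the 1 that fell became 2 with DESeq2, 0 with either FPKM pseudocount over all genes but 1 with the filter on mean FPKM, and 0 to 1 with 1 library left out. The causes were not tested. With the replicate number as a block, 3 T cell members and 2 NK or cytotoxic members fell in CCR2-selected cells. Same-numbered libraries had correlated deviations of -0.02668 to 0.08676 there and 0.005482 to 0.1987 in Ly6G-selected cells. Differently numbered libraries had -0.1043 to 0.03468 and -0.2201 to 0.1561 in the same order. These values do not settle whether the numbers are pairs. The labels name no pairs, and the main fit took none. Over all genes of the Ly6G-selected cells, 74 rose and 0 fell, against 441 and 106 with DESeq2, 8, 26 and 49 that rose in the limma-trend fits on FPKM, 4 and 1 with the block, 257 and 31 without control replicate 1 and 0 without any other library. Over all genes of the CCR2-selected cells, 1354 rose and 681 fell in the main fit, against 1175 and 816 with library totals. These counts were 1534 and 1185 with DESeq2, 1325 and 726 with no filter, and 1551 and 1043 with the block. The limma-trend fits gave 883 and 322 with 1 added, 917 and 362 with 0.1 added, and 1146 and 637 with the filter on mean FPKM. With 1 library left out, 706 to 1687 rose and 177 to 1168 fell. No called member changed direction.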
